A study of Homo sapiens with 6 samples.

Results

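The sodium-coupled carriers examined here are 10 plasma membrane or lysosomal transporters of the SLC1, SLC6 and SLC38 families, chosen by gene symbol and found as 10 of the 61533 gene rows of the count table. All 10 had enough reads to be tested, among 14071 genes tested in all. RNA was sequenced after ribosomal RNA depletion from MDA-MB-231, a human cell line long established from a triple-negative breast cancer. The groups were cells carrying an empty vector, whose genotype the labels give as WT (3 libraries), and cells carrying shKDM2B, a short hairpin RNA that lowers the histone demethylase and CpG-binding protein KDM2B (3 libraries). Both groups were grown in the same medium, which contained glutamine, nonessential amino acids, pyruvate and serum, and were collected before confluence. Its title names the transcriptional control of amino acid metabolism by KDM2B, acting with MYC and ATF4, as the subject of the series.

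Sodium-coupled carriers of the plasma membrane use the inward sodium gradient, which the sodium pump maintains, to concentrate their substrates inside the cell. SLC1 carriers move acidic or small neutral amino acids, SLC6 carriers move glycine, taurine, creatine and related solutes, and SLC38 carriers move glutamine and other small neutral amino acids. Cancer cells are known to rely on such carriers for glutamine, serine and glycine. ATF4 is known to induce several of them when amino acids run short, SLC38A2 and SLC6A9 among them, and MYC is known to induce SLC1A5.

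Library totals ran from 10190149 to 15737951 counts. KDM2B had 589, 714 and 902 counts in the empty vector libraries and 153, 166 and 224 in the shKDM2B libraries, which is 23.1% of its empty vector level in CPM (counts scaled to library size). The mesenchymal marker VIM was abundant in every library but fell from 1299 ± 52.3 to 405.9 ± 10.3 CPM (SD, n = 3 each; log2 fold change -1.68, adjusted p 1.43e-12), while CD44 and the keratin KRT8 rose by 0.20 and 0.49 on the log2 scale. ESR1 and PGR had at most 4 counts in any library, as the labelled triple-negative type has it, while ERBB2 was measured at 63.7 ± 8.34 CPM in empty vector and 62.5 ± 3.80 in shKDM2B cells (SD, n = 3 each). Among markers of other cell types, none of 8 leukocyte genes passed the low-count filter. The same held for 6 of 8 fibroblast, 4 of 6 endothelial and 6 of 8 neural and glial genes. Summed over each list, the leukocyte genes lay at 0.194 to 0.381 CPM in empty vector and 0.875 to 1.11 in shKDM2B cells, and the fibroblast genes at 5.83 to 9.33 and 68.4 to 76.8, most of it COL1A1. The endothelial list lay at 57.8 to 65.0 and 176.4 to 187.1 CPM, carried by ESAM and KDR, with the defining genes CDH5 and VWF at no more than 7 counts. The neural and glial list lay at 123.6 to 133.5 and 103.9 to 105.7 CPM. The part of these genes in the results below was not tested.

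Levels of different genes were compared per length, as TPM (a length-corrected share of a library's transcripts) over the summed length of each gene's exons. SLC1A5, SLC38A1, SLC38A2 and SLC6A6 were the abundant carriers of this line, and the other 6 together made up only 4.44 to 4.82% of the summed TPM of the 10 in empty vector libraries. SLC1A5 came first with 578, 601 and 614 TPM in the 3 empty vector libraries and 519, 517 and 534 in the 3 shKDM2B libraries. SLC38A1 followed at 377 ± 27.5 TPM, SLC38A2 at 296 ± 29.4 and SLC6A6 at 142 ± 15.8 in empty vector (SD, n = 3). A wide gap separated these from SLC38A7 at 21.9 ± 4.13, SLC1A4 at 15.01 ± 0.239, SLC6A9 at 14.5 ± 1.88, SLC1A1 at 8.04 ± 1.37, SLC1A3 at 6.76 ± 1.09 and SLC6A8 at 3.11 ± 0.278 TPM. Within that order SLC1A4 overlapped with SLC6A9, and SLC1A1 with SLC1A3, while the libraries of every other pair of neighbours did not overlap. With the longest coding transcript as the length, 6 of the 10 carriers held their rank.

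**Figure D1:**
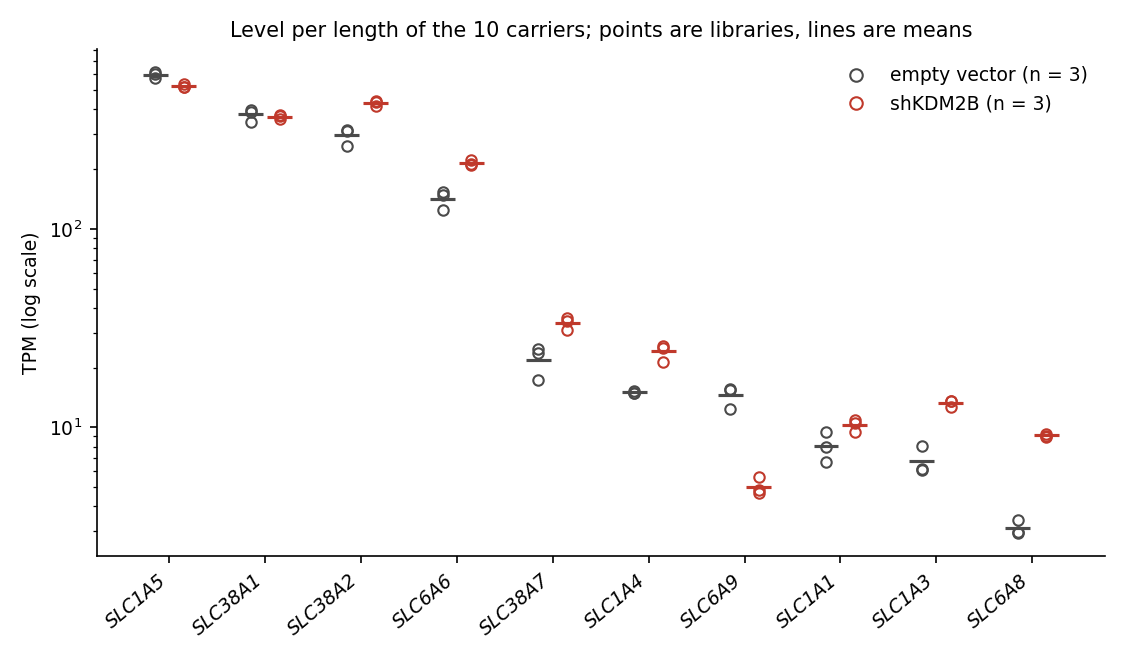
Level per length (TPM, log scale) of the 10 carriers in each of the 3 empty vector libraries (grey) and 3 shKDM2B libraries (red), ordered by the empty vector mean, with a line at each mean. SLC1A5, SLC38A1, SLC38A2 and SLC6A6 lie above 100 TPM, and SLC6A9 moves from the seventh place to the last.

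In shKDM2B cells the order changed for 5 of the 10 carriers. SLC38A2, at 415 to 441 TPM, stood above SLC38A1, at 357 to 375, and SLC6A9 dropped from rank 7 to rank 10, below SLC6A8. SLC1A3 stood above SLC1A1 in shKDM2B cells, but the empty vector libraries of these genes overlapped, and with the longest coding transcript as the length SLC1A3 was above in empty vector already, at 10.2 against 8.63 TPM. All neighbours in the shKDM2B order had libraries that did not overlap. SLC1A5 made up 38.5 to 43.1% of the summed TPM of the 10 carriers in empty vector and 31.3 to 32.5% in shKDM2B libraries, and SLC6A6 made up 8.87 to 9.91% and 12.8 to 13.5%. SLC38A1 and SLC38A2 together held 43.6 to 46.8% and 48.4 to 49.3%.

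Compared between the groups, 7 of the 10 carriers rose in shKDM2B cells, 2 fell and 1 did not pass the threshold, an adjusted p under 0.05 in edgeR's quasi-likelihood test. Over all genes tested, 60.9% passed it, 30.5% higher and 30.4% lower, so most genes of these cells differed between the groups. The groups did not overlap for 9 of the 10 carriers, beside 65.5% of all genes tested. The median log2 fold change was 0.61 over the 10 carriers and -0.01 over all genes, and the median size without regard to sign was 0.64 and 0.36. SLC6A8, SLC1A3 and SLC6A9 changed at least 2-fold, beside 12.0% of all genes tested. In these bulk libraries fewer or more cells that express a carrier and less or more of its RNA per cell cannot be told apart. The series has a single shRNA group and an empty vector as control. Loss of KDM2B and other effects of the hairpin therefore cannot be told apart either.

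**Figure D2:**
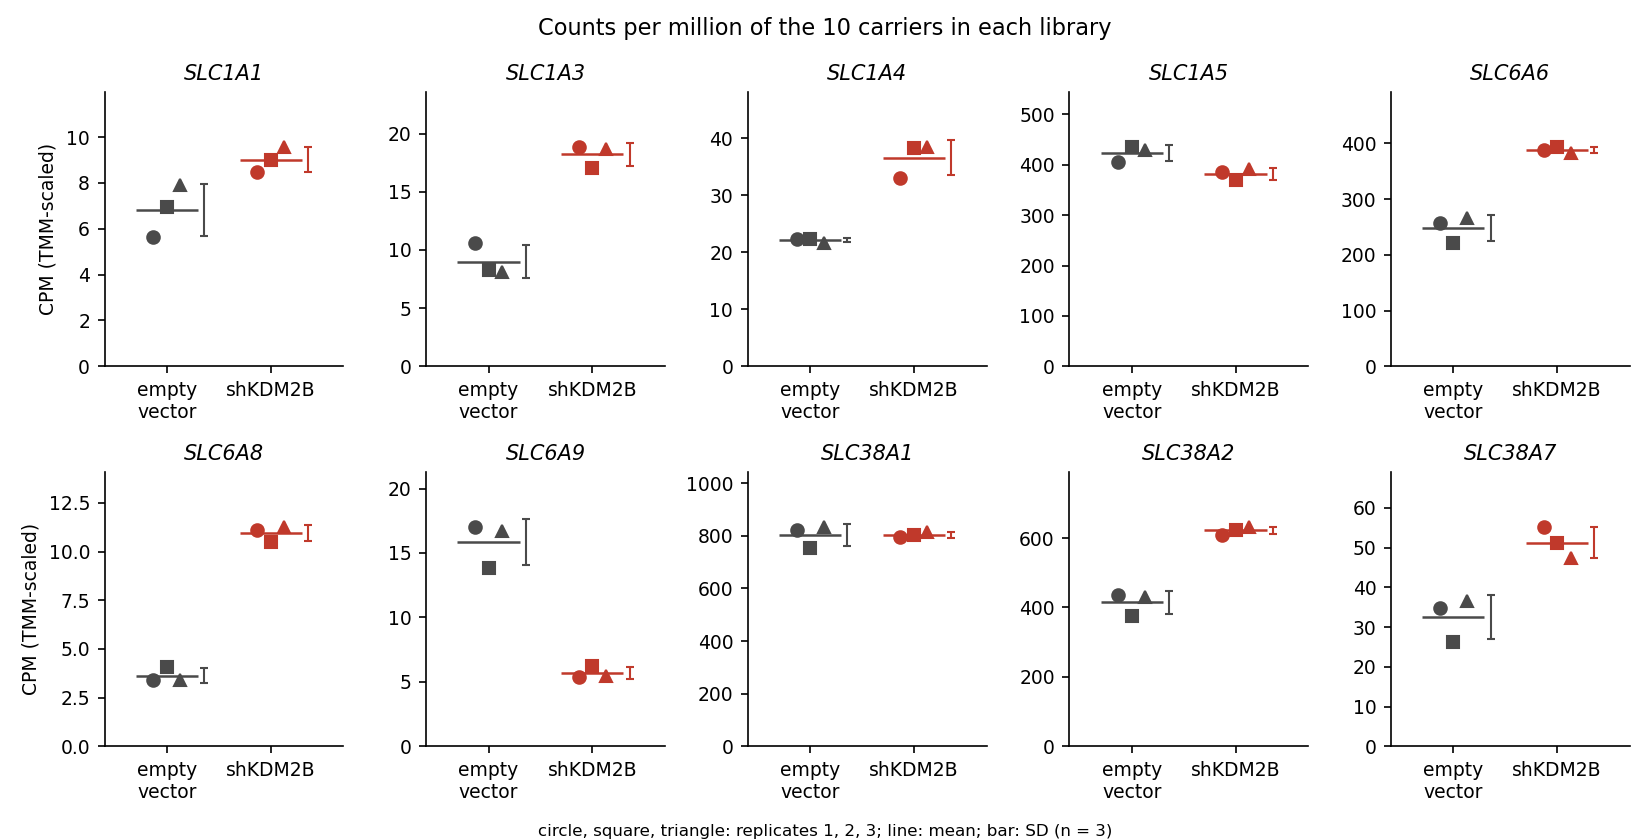
TMM-scaled CPM of each carrier in the 3 empty vector libraries (grey) and the 3 shKDM2B libraries (red), one panel per gene with its own axis from 0. Lines are means, bars are SD (n = 3), and SLC38A1 is the single carrier whose groups overlap.

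The largest changes fell on the SLC6 family, in opposite directions. SLC6A8, the creatine carrier (ENSG00000130821.17, X chromosome from 153688099 to 153696593, plus strand, GRCh38), had 35, 43 and 47 counts in empty vector and 114, 120 and 173 in shKDM2B libraries. Its level went from 3.40, 4.10 and 3.40 CPM to 11.1, 10.5 and 11.3 CPM, so all shKDM2B libraries lay far above all empty vector libraries (log2 fold change 1.60, SE 0.14, adjusted p 2.42e-07). The SLC6A8 gene has a near-identical copy, SLC6A10P, which had 0 counts in 5 libraries and 1 in the other. The sources used here do not say how multiply mapped reads were treated, so the level of SLC6A8 is uncertain to that extent.

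SLC6A9, the glycine carrier GlyT1 (ENSG00000196517.13, chromosome 1 from 43991500 to 44031467, minus strand), had 17.02, 13.8 and 16.7 CPM in empty vector and 5.35, 6.22 and 5.47 CPM in shKDM2B libraries. It was the carrier with the largest decrease, to 35.8% of the empty vector level (log2 fold change -1.48, SE 0.13, adjusted p 2.11e-07). A long noncoding RNA gene within its bounds on the opposite strand, AL139220.2, shares no exon bases with it and fell as well, from 6.52, 5.14 and 5.94 CPM to 0.875, 0.963 and 0.847 CPM (log2 fold change -2.70, adjusted p 1.04e-07). CCDC24, also on the opposite strand, shares 404 exon bases with SLC6A9, or 7.83% of them, and had 11 to 37 counts in the 6 libraries (log2 fold change 0.65, adjusted p 0.0538). Whether the authors' counting used strand is not stated in those sources either, so reads of opposite strands cannot be told apart in the shared bases.

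SLC6A6, the taurine carrier TauT (ENSG00000131389.18, chromosome 3 from 14402576 to 14489349, plus strand), was the abundant member of the family. It rose from 257, 222 and 266 CPM to 387, 394 and 383 CPM, 1.56-fold (log2 fold change 0.64, SE 0.06, adjusted p 5.26e-07). The coefficient of variation was 9.30% in empty vector and 1.44% in shKDM2B libraries, where counting error alone would give 1.86% and 1.45%.

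The upstream sequences of SLC6A8 and SLC6A9 are shown because these carriers had the largest changes and went opposite ways, and because KDM2B binds DNA through a zinc finger that recognises CpG. Each is the 250 bases before the RefSeq start (GRCh38.p14), 5′ to 3′ on the gene's strand, with CG in capitals. That of SLC6A8 spans chrX:153687676-153687925 (plus strand) and holds 25 CG, and that of SLC6A9 spans chr1:44031463-44031712 (minus strand) and holds 9.
SLC6A8: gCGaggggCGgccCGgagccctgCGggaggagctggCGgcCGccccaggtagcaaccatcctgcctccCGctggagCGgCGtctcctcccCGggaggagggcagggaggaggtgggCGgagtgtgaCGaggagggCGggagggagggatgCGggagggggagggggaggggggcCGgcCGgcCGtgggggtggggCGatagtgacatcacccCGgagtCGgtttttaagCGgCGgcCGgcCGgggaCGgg
SLC6A9: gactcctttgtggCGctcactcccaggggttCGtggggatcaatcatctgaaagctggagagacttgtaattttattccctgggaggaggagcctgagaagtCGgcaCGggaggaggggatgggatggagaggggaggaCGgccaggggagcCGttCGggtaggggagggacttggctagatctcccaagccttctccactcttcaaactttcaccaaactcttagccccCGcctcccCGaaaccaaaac
Counted over the full 300-base window, which adds 50 bases after the start, SLC6A8 had 32 CG and SLC6A9 had 16. The median was 25 over the 15208 windows of genes tested, with quartiles of 15 and 34. The windows of SLC38A2 and SLC1A1 held 33 CG each, and the 3 windows of SLC1A3 held 1, 9 and 10. Of the 10 carriers 9 had windows in the RefSeq table, 16 in all, and SLC6A6 had none there. The most CG, 43, lay in 1 of the 2 windows of SLC1A4, whose other window held 15. SLC1A3, below the lower quartile in all its windows, and SLC6A8, SLC1A1 and SLC38A2, between the median and the upper quartile, all rose. SLC1A4 and SLC38A7 rose as well, and the windows of SLC38A7 held 18 and 15 CG. Of the carriers that fell, SLC6A9 lay between the lower quartile and the median, and the windows of SLC1A5 held 24, 26 and 9. The windows of SLC38A1, which did not pass the threshold, held 22 and 6. The part of CG content in these changes was not tested.

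**Figure D3:**
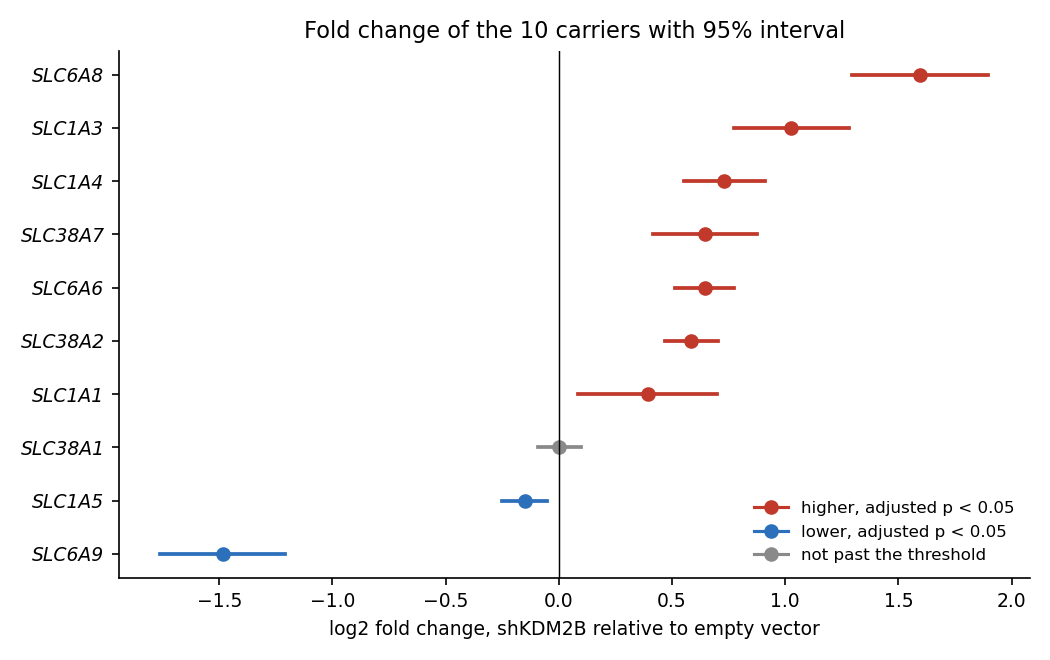
Log2 fold change of each carrier in shKDM2B relative to empty vector cells (x axis) with its 95% interval, ordered by size, red for carriers that rose, blue for carriers that fell and grey for the carrier that did not pass the threshold. SLC6A8 at 1.60 and SLC6A9 at -1.48 mark the ends, and the interval of SLC38A1 spans 0.

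Among the SLC1 carriers of acidic amino acids, both rose. SLC1A3, the glutamate and aspartate carrier EAAT1 (ENSG00000079215.15, chromosome 5 from 36606355 to 36688334, plus strand), went from 10.6, 8.29 and 8.11 CPM to 18.9, 17.1 and 18.7 CPM, and every shKDM2B library lay above every empty vector library. Its increase was 2.04-fold (log2 fold change 1.03, SE 0.12, adjusted p 3.84e-06). SLC1A1, the glutamate and cysteine carrier EAAT3 (ENSG00000106688.12, chromosome 9 from 4490444 to 4587469, plus strand), went from 5.64, 6.95 and 7.89 CPM to 8.46, 9.02 and 9.57 CPM. The gap between its groups was small, and its log2 fold change of 0.39 (SE 0.14, adjusted p 0.0285) rested on 58 to 147 counts a library. That call was lost with DESeq2 (adjusted p 0.0774), against a 1.2-fold change (0.155) and without empty vector replicate 1 (0.130), shKDM2B replicate 2 (0.0602) or shKDM2B replicate 3 (0.109).

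The SLC1 exchangers of neutral amino acids went opposite ways. SLC1A5, the glutamine carrier ASCT2 (ENSG00000105281.12, chromosome 19 from 46774883 to 46788594, minus strand), fell slightly, from 406, 436 and 429 CPM to 385, 369 and 391 CPM. Its shKDM2B level was 90.1% of the empty vector level (log2 fold change -0.15, SE 0.05, 95% interval -0.25 to -0.05, adjusted p 0.0117), and the lowest empty vector library lay just above the highest shKDM2B library. Without shKDM2B replicate 2 its adjusted p was 0.0855, and it was 1 against a 1.2-fold change. Its small decrease stood beside MYC at 54.4% and ATF4 at 29.3% of their empty vector levels. The antisense gene AC008622.2 shares 780 exon bases with SLC1A5 but had at most 5 counts in any library. Elsewhere, GRIP2 shares 2.90% of the exon bases of SLC6A6 and had at most 7 counts, PNCK shares 22 bases with SLC6A8 and had at most 1 count, and SLC38A2-AS1 shares none with SLC38A2 and had 1 to 13 counts.

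SLC1A4, the alanine, serine, cysteine and threonine carrier ASCT1 (ENSG00000115902.11, chromosome 2 from 64988477 to 65023865, plus strand), rose from 22.4, 22.4 and 21.6 CPM to 33.1, 38.3 and 38.5 CPM. The empty vector libraries were almost alike, while shKDM2B replicate 1 lay below the other shKDM2B libraries. The increase was 1.66-fold (log2 fold change 0.73, SE 0.08, adjusted p 3.33e-06). Per length, SLC1A5 exceeded SLC1A4 37.8-fold, 40.5-fold and 41.2-fold in the empty vector libraries and 24.2-fold, 20.1-fold and 21.2-fold in the shKDM2B libraries.

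The SLC38 carriers rose or did not pass the threshold. SLC38A2, the amino acid importer SNAT2, known to be induced by amino acid shortage (ENSG00000134294.14, chromosome 12 from 46358189 to 46372867, minus strand), rose from 437, 376 and 431 CPM to 609, 624 and 632 CPM. All shKDM2B libraries lay well above all empty vector libraries (log2 fold change 0.59, SE 0.05, adjusted p 4.51e-07). ATF4, in the same libraries, had 427, 513 and 441 CPM in empty vector and 133, 138 and 134 CPM in shKDM2B cells.

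SLC38A1, the related importer SNAT1 (ENSG00000111371.16, chromosome 12 from 46183063 to 46270017, minus strand), lies near SLC38A2 on the same strand and did not follow it. It had 821, 753 and 834 CPM in empty vector and 794, 803 and 814 CPM in shKDM2B libraries, so the groups overlapped fully. Its log2 fold change was 0.0022 (SE 0.04, adjusted p 0.970), with a 95% interval from -0.09 to 0.10. SLC38A7, the lysosomal glutamine exporter SNAT7 (ENSG00000103042.9, chromosome 16 from 58665109 to 58685104, minus strand), rose from 34.9, 26.2 and 36.5 CPM to 55.2, 51.2 and 47.4 CPM (1.56-fold, log2 fold change 0.65, SE 0.11, adjusted p 1.48e-04).

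Ratios of related carriers within a library do not depend on how libraries are scaled, and 4 pairs were compared this way. SLC38A2 per length was 0.807, 0.756 and 0.784 times SLC38A1 in the empty vector libraries and 1.17, 1.18 and 1.18 times in the shKDM2B libraries. SLC6A8 was 0.188, 0.278 and 0.191 times SLC6A9 and then 1.94, 1.59 and 1.93 times, so the creatine carrier replaced the glycine carrier as the higher of the pair. This ratio differed 8.42-fold between the groups. The ratio of SLC1A5 to SLC1A4 differed 1.83-fold, and that of SLC38A2 to SLC38A1 by 0.58 on the log2 scale. SLC1A1 stood at 0.834, 1.31 and 1.53 times SLC1A3 in empty vector and at 0.703, 0.828 and 0.803 times in shKDM2B libraries, where empty vector replicate 1 nearly met the shKDM2B libraries. The groups did not overlap for any of the 4 pairs, and each exact two-sided permutation test gave p = 0.10, also after Benjamini-Hochberg adjustment over the 4. With 3 libraries against 3, 0.10 is the smallest p this test can give.

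**Figure D4:**
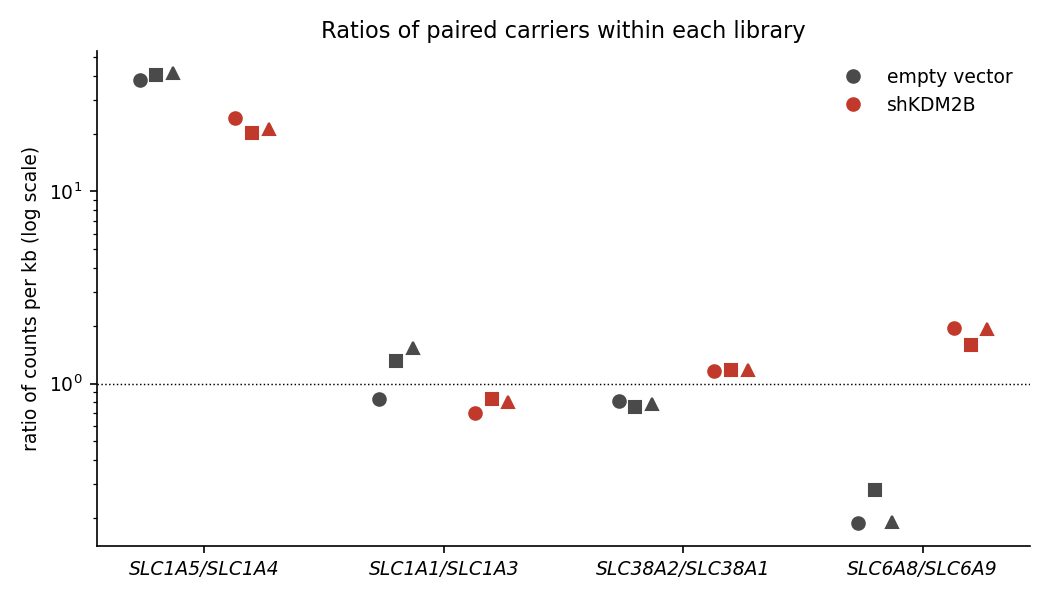
Ratio of counts per kb (log scale) for 4 pairs of carriers in each library, grey for empty vector and red for shKDM2B, with circles, squares and triangles for replicates 1, 2 and 3 and a dotted line at equal levels. SLC6A8/SLC6A9 crosses that line from 0.188 to 0.278 up to 1.59 to 1.94, and SLC38A2/SLC38A1 crosses it in the same direction.

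Promoter windows were searched on both strands for the core of the amino acid response element that ATF4 binds, TGATGNAA, and for the E-box CACGTG that MYC binds. The response element core was found in 4 of the 16 windows, from SLC1A4, SLC1A3, SLC1A5 and SLC38A1, beside 2.01% of the 15208 windows of genes tested. These 4 matches are shown within 30 bases, 5′ to 3′ on the gene's strand, with the core in capitals (GRCh38.p14). They lie at chr2:64989381-64989410 (plus), chr5:36596357-36596386 (plus), chr19:46784893-46784922 (minus) and chr12:46266502-46266531 (minus), starting 7, 220, 97 and 4 bases before a RefSeq start.
SLC1A4: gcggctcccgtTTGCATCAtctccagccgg
SLC1A3: caggaaatgacTGATGCAAagcagggttaa
SLC1A5: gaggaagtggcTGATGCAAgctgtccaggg
SLC38A1: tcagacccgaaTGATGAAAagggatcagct
The match of SLC1A4 reads in the opposite direction to the gene. That of SLC1A3 lies upstream of the gene bounds given above. Those of SLC1A4, SLC1A5 and SLC38A1 lie inside the bounds of their genes, past the outermost start. Of the carriers with a match, SLC1A4 and SLC1A3 rose, SLC1A5 fell slightly and SLC38A1 did not pass the threshold. SLC6A9, which fell most, and SLC38A2 had no match in their windows. The windows reach only from 250 bases before to 50 bases after a RefSeq start. An element elsewhere in a gene, such as in an intron, could not be found, so no match does not mean that a gene lacks one. The E-box was found in 1 window each of SLC1A5 and SLC38A7, beside 9.19% of windows of genes tested, and no window held both motifs. A match is a run of letters, not a shown binding site, and SLC1A3, SLC1A4, SLC1A5, SLC38A1 and SLC38A7 have several starts, any of which these cells may or may not use.

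Another short word, CGACAC, was searched on the transcript strand in the annotated 3′ UTR of each gene's longest coding transcript, because genes that hold it had been seen to have lower counts in these libraries. SLC6A8, SLC6A9 and SLC38A7 each held 1, and the other 7 carriers held 0. SLC6A8 and SLC38A7 rose and SLC6A9 fell. Of all genes tested with a coding transcript, 4.97% held the word, and 50.3% of these were lower and 23.3% higher in shKDM2B cells, against 30.5% and 33.5% of those without it. The word was searched for because of that difference in these same libraries, so these shares are not independent of the choice. Genes with the word also had longer annotated 3′ UTRs, with a median of 2950 against 1313 bases. The part of this word in the changes of SLC6A8, SLC6A9 and SLC38A7 was not tested.

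Most other carriers of the SLC1, SLC6 and SLC38 families were not measurable in this line. Of 27 further family members 5 passed the low-count filter. The other 22 had at most 19 counts in any library, with 6 at 0 throughout. Among these 22 were the glutamate carrier SLC1A2 (chosen after its values were seen) and the GABA, dopamine and serotonin carriers. Of the 5 measured, 3 rose and 1 fell, beside 30.5% higher and 30.4% lower of all genes tested. SLC38A9, the lysosomal arginine sensor of mTORC1, rose from 19.9, 19.0 and 20.6 CPM to 35.97, 36.8 and 34.8 CPM (log2 fold change 0.85, SE 0.08, adjusted p 3.40e-07). SLC38A6 and SLC38A10 rose by 0.32 and 0.18 on the log2 scale (adjusted p 0.0340 and 0.0303), calls that DESeq2 did not make (0.106 and 0.0564). The count of 4 was 1 with DESeq2, 1 without empty vector replicate 1 or shKDM2B replicate 1, and 2 without empty vector replicate 3 or shKDM2B replicates 2 or 3 in turn. SLC6A14, a broad neutral and cationic amino acid carrier and the member that fell, was near the detection limit, at 1.78 ± 0.227 and 1.06 ± 0.156 CPM (SD, n = 3 each; chosen after its values were seen), and SLC38A4 did not pass the threshold (log2 fold change -0.05, adjusted p 0.811; named for the same reason).

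Subunits of the sodium pump, which supplies the gradient for the sodium-coupled carriers of the plasma membrane, were examined as well. ATP1B1, a beta subunit needed for delivery of the pump to the membrane, rose from 172, 183 and 174 CPM to 364, 349 and 348 CPM, with groups far apart (log2 fold change 1.00, SE 0.05, adjusted p 5.88e-10). FXYD5, a regulatory subunit, fell from 163, 137 and 134 CPM to 74.6, 65.2 and 69.2 CPM, and its groups did not overlap either (log2 fold change -1.05, SE 0.08, adjusted p 3.96e-08). Another 10 genes of the list had at most 3 counts in any library.

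Of 6 measured genes that make or use the carriers' substrates creatine, taurine and glycine, 3 fell and 0 rose, beside 30.4% lower and 30.5% higher of all genes tested. The count was 2 with DESeq2. GAMT, which makes creatine, the substrate of SLC6A8, fell from 47.4, 60.2 and 52.4 CPM to 26.0, 29.2 and 27.9 CPM (log2 fold change -0.94, SE 0.09, adjusted p 5.31e-07). GATM, which makes the precursor of creatine, did not pass the filter, with 3 to 9 counts a library (chosen after its values were seen). GCSH, of the glycine cleavage system, had a log2 fold change of -0.55 (adjusted p 0.00117). Of the same system, GLDC had 1 to 8 and AMT 0 to 4 counts a library, and neither passed the filter. DLD did not pass the threshold (log2 fold change -0.07, adjusted p 0.268). These 3 were chosen after their values were seen. CKB, the brain-type creatine kinase, had a log2 fold change of -0.24 (adjusted p 0.0414), a call lost with DESeq2 (0.0660) and in 4 of the 6 fits that left out a library.

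Of 11 measured regulators of carrier trafficking, 4 were higher and 3 lower, beside 30.5% higher and 30.4% lower of all genes tested. ARL6IP5, a binding partner of SLC1A1 known to hold it in the endoplasmic reticulum, rose by 0.62 on the log2 scale (adjusted p 1.28e-07). WNK1, a kinase of ion transport, rose by 0.36 (adjusted p 5.07e-05), and BSG, a chaperone of membrane carriers, fell by 0.48 (adjusted p 3.01e-07). NEDD4L, the ubiquitin ligase known to remove SLC38A2 and other carriers from the membrane, had a log2 fold change of -0.06 (adjusted p 0.237), and was chosen after its values were seen.

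A list of mainly sodium-independent carriers and carrier subunits that work beside the sodium-coupled ones had 5 of 11 measured genes higher and 4 lower. Over all genes tested, 30.5% were higher and 30.4% lower. SLC7A5, which exchanges intracellular glutamine for leucine, had 826, 775 and 853 CPM in empty vector and 255, 245 and 265 CPM in shKDM2B libraries (log2 fold change -1.68, SE 0.05, adjusted p 5.74e-12). SLC43A2 and SLC43A1, facilitative carriers of large neutral amino acids, rose by 1.58 and 0.51 (adjusted p 4.61e-09 and 2.68e-04). Beside the fall of SLC7A5, the glutamine carriers SLC1A5, SLC38A1 and SLC38A2 had log2 fold changes of -0.15, 0.0022 and 0.59.

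**Figure D5:**
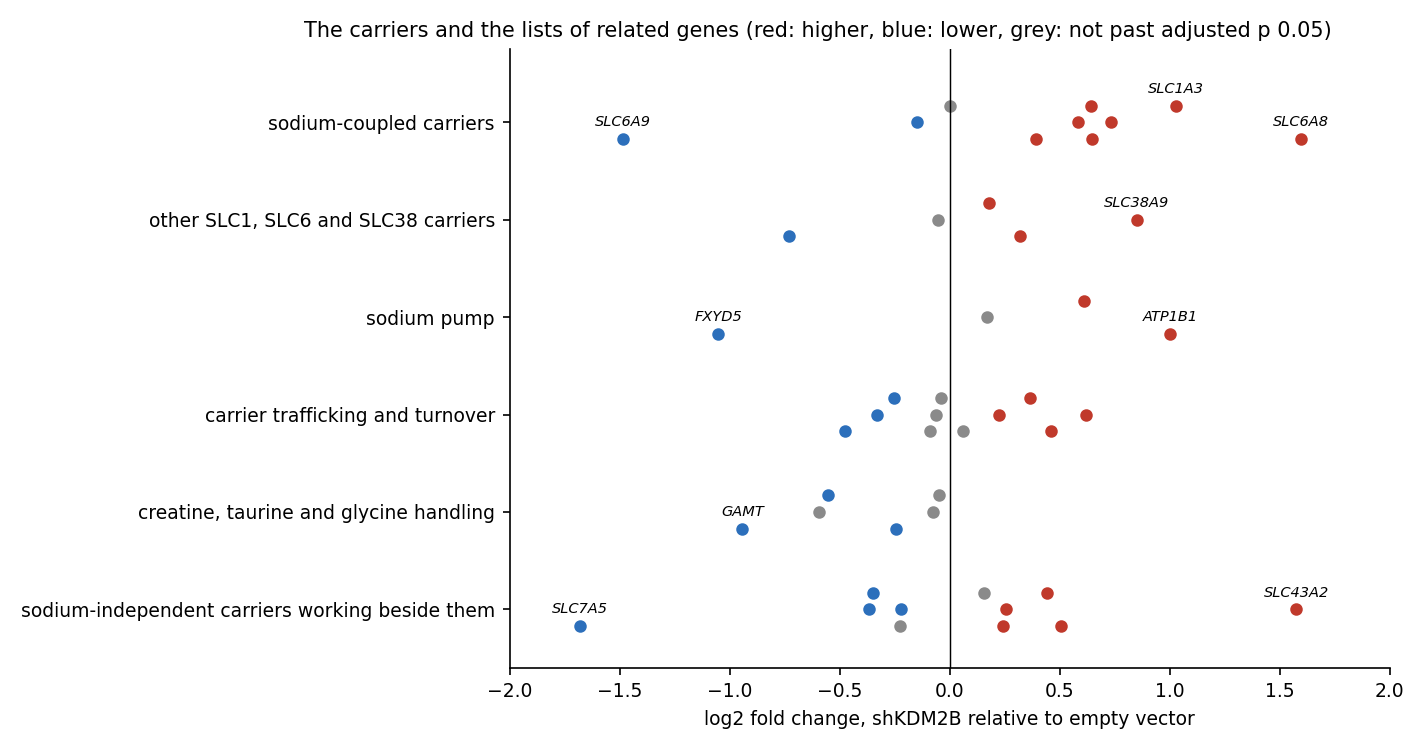
Log2 fold change in shKDM2B relative to empty vector cells (x axis) of the 10 carriers and of the genes reported from 5 related lists, 1 point per gene, red for genes that rose, blue for genes that fell and grey for genes not past the threshold. Names are given beyond 0.8 in either direction, and the sodium pump shows FXYD5 near -1 and ATP1B1 near 1.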

How the data were processed

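Gene expression was measured by RNA-seq in 3 empty vector and 3 shKDM2B libraries of MDA-MB-231 cells. The authors deposited raw read counts per gene. Per the submitters' processing notes, GRCh38 (hg38) was used with STAR, featureCounts, Trim Galore, edgeR, limma and DESeq2. Tool versions, the role of each tool, annotation release and strand setting are not stated there. Columns were matched to samples by name. The shKDM2B columns bear sh and a code without KDM2B and were taken as the only shRNA group of the series. Of 61533 gene identifiers, 61415 matched a symbol.

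After filterByExpr (minimum count 10, minimum total 15), counts were scaled by TMM and tested across all genes with edgeR 4.0.16 (R 4.3.3, quasi-likelihood, robust, two-sided, Benjamini-Hochberg over 14071 genes). Each SE is the fold change over the square root of F. CPM are TMM-scaled counts, and TPM used exon lengths of GENCODE release 29 (58312 identifiers matched). Promoter windows came from RefSeq (GRCh38.p14). Figures and ratio tests used Python 3.11.15, scipy 1.17.1 and matplotlib 3.10.9. Alternatives were DESeq2 1.42.0, limma-voom (limma 3.58.1), other scalings and filters, no robust step, a replicate block, a 1.2-fold threshold and leaving out each library. The fit was tested on simulated counts.

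The members and lists were chosen with earlier results of these data known. Named genes were the 10 carriers, KDM2B, ATF4 and MYC, genes overlapping or copying a carrier, and up to 3 changed genes per list at a mean CPM of 5 or more, and any other gene was chosen after its values were seen. The labels call the replicates biological without saying whether they were separate cultures, so the p-values may reflect technical spread only. Within a group, no libraries agreed within counting error (chi-square over degrees of freedom 2.00 to 10.0), so each counted as 1 replicate. A count of 0 allows up to 3 counts, or 0.195 to 0.292 CPM, for counting error only. Some genes of these lists or beside the carriers are not reported here.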

Additional observations from a re-analysis of the deposited data

How the results depend on the processing

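Across 16 alternative settings, 7 of the 10 carriers kept their direction and their side of the threshold in every one. SLC1A1 lost its call in 5 settings (log2 fold change 0.27 to 0.52) and SLC1A5 in 2 (-0.19 to -0.12), and neither turned direction. SLC38A1, near 0 and never past the threshold, turned negative with upper-quartile scaling (-0.0084), library totals only (-0.030) and no filter (-0.024), and in 2 of the fits without 1 library, where it ran from -0.049 to 0.024. Against a 1.2-fold change 5458 genes in all, 6 carriers higher and 1 lower passed. The number of carriers that passed was 7 to 9 without each library in turn, with 1 or 2 lower. The other SLC1, SLC6 and SLC38 carriers gave 2 calls in place of 4 with library totals only or no filter, 1 with DESeq2 or against a 1.2-fold change, and 1 to 3 without a library. Against a 1.2-fold change, trafficking genes gave 3 calls in place of 7 and the list of mainly sodium-independent carriers 5 in place of 9. The cause was not tested, except that a size threshold calls fewer genes by construction. The alternatives for these lists and for gene length, which left 6 carriers at their rank, were chosen after seeing the data. Scaling moved the median of all genes by at most 0.033 in size (library totals only, -0.033). Replicate numbers are shared between groups, but same-numbered libraries deviated together only weakly (correlations 0.118, -0.026 and 0.075), so no pairing was used. With the replicate block 8479 genes and 9 carriers passed, against 8571 and 9 without it, and it changed no carrier's call. Counts under 50 in a library limit SLC6A8 in empty vector.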

Other observations

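The carriers varied more between the empty vector libraries than between the shKDM2B libraries. The coefficient of variation was larger in empty vector for 9 of the 10 carriers, all but SLC1A4, and for 65.5% of the genes tested. For SLC38A1 it was 5.37% in empty vector and 1.28% in shKDM2B libraries, where counting error alone gives 1.04% and 1.00%. For SLC38A2 it was 8.13% and 1.83%, and for SLC38A7 17.1% and 7.62%. For SLC6A8 it was 10.99% and 3.61%, both below what counting error alone gives, 15.5% and 8.6%. Empty vector replicate 2 was the lowest of its group for SLC6A6, SLC6A9, SLC38A1, SLC38A2 and SLC38A7 and the highest for SLC1A4, SLC1A5 and SLC6A8. It was thus at one end of its group for 8 of the 10 carriers, and it was so for 79.2% of the genes tested. Leaving it out moved the log2 fold change of SLC38A1 to -0.05 (adjusted p 0.0693, edgeR).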
